A study of Mus musculus with 15 samples.

Results

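The 10 genes described here belong to glycolysis and to the transcriptional response to low oxygen: Slc2a1, Slc2a3, Hk2, Aldoa, Pgk1, Pkm, Ldha, Pdk1, Vegfa and Bnip3. They were chosen by name as columns of the transcript tables, 10 of 30534 features, and all 10 were present and passed the filter on low counts in every comparison. The tissue was sectioned mouse embryo of 3 stages, embryonic days 10, 11 and 12, here E10, E11 and E12. Barcodes were flowed over each section through crossed microfluidic channels, so that each crossing gave a barcoded pixel 10, 25 or 50 µm wide. The groups were E10 at 10 µm (2 libraries), 25 µm (1 library) and 50 µm (3 libraries), E11 at 10 µm (2 libraries) and 25 µm (2 libraries), and E12 at 50 µm (1 library). The tissue is labelled embryo, and no treatment or genetic change is named. The labels give no strain, embryo, sex or plane of section and do not say that libraries came from separate embryos, so p-values measure the spread between these sections only, which may be technical. The comparisons ask how the level of each gene varied with stage and where in the embryo it lay.

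Glycolysis splits glucose into pyruvate in the cytosol. Glucose enters through carriers such as Slc2a1 (GLUT1) and Slc2a3 (GLUT3) and is trapped by hexokinases such as Hk2. Aldolase A (Aldoa), phosphoglycerate kinase (Pgk1) and pyruvate kinase (Pkm) act further down, and lactate dehydrogenase A (Ldha) turns pyruvate into lactate. Pdk1 encodes a kinase that inhibits pyruvate dehydrogenase and so limits the use of pyruvate in the mitochondrion. When oxygen is low, the hypoxia-inducible factors (HIF), dimers of Hif1a or Epas1 with Arnt, escape breakdown and raise the transcription of many of these genes, as well as of Vegfa, a growth factor for blood vessels, and Bnip3, a mitochondrial protein of mitophagy. Midgestation embryos live at low oxygen and are known for a high rate of glycolysis.

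Tissue pixels held 1563489 to 11998765 counts per library, with a median of 843.5 to 11332 counts per pixel. The E10 25 µm library was the shallowest of the 11. It stood apart for Slc2a1, Pgk1, Vegfa and Bnip3, and it is the only library of its group. The sections also held different organs. Heart markers picked out 6 pixels of E11 10 µm replicate 1 and 5 of E10 10 µm replicate 2. In E11 10 µm replicate 2 they picked out 193, the set limit of 10% of tissue pixels. Liver markers picked out at most 2 pixels in any E10 section and in E11 10 µm replicate 1. Neural markers picked out 28 pixels of E11 10 µm replicate 2 and 83 to 227 in each of the other 10 libraries.

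The genes lie on several chromosomes (GENCODE M21, build GRCm38). Slc2a1 is at chr4:119108711-119137983 on the plus strand, Pdk1 at chr2:71873224-71903858 on the plus strand, Ldha at chr7:46841475-46855627 on the plus strand, Pgk1 at chrX:106187100-106203699 on the plus strand and Pkm at chr9:59656368-59679375 on the plus strand. Aldoa is at chr7:126795234-126800751, Bnip3 at chr7:138890836-138909519, Hk2 at chr6:82725025-82774454, Slc2a3 at chr6:122727809-122801640 and Vegfa at chr17:46016993-46032369, all on the minus strand. A further gene model named Aldoa lies at chr7:126800790-126809108 on the same strand, and the counts are given by symbol.

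Promoter sequences from RefSeq (GRCm38.p6) were in the table for 9 of the 10 genes, without Slc2a3. The core of the hypoxia response element was searched as ACGTG on both strands (CACGT on the other) in the 250 bases before each start. It was present before at least 1 start of 8 of the 9 genes, all but Pdk1, and in 9 of their 15 windows. For Vegfa the match lay before a start inside the gene (chr17:46025164-46025413), and its other window (chr17:46032378-46032627) held 0. Pkm held it in the window chr9:59656977-59657226 and not in chr9:59656326-59656575. The Aldoa windows chr7:126799255-126799504 and chr7:126799179-126799428 overlap and hold the same match. Over all genes of the table, 18.5% had it before at least 1 start, and 16.6% of all 32851 windows held it. A relaxed core, GCGTG or its complement, was present for 5 of the 9 genes, Pdk1 among them, beside 30.9% of all genes and 28.2% of all windows. A match describes letters, not binding. Printed here, with ACGTG or CACGT in capitals, are windows of the 4 genes that were higher in heart marker-high pixels (Slc2a1, Aldoa, Pgk1 and Pdk1) and of Ldha, the gene with the smallest adjusted p in liver marker-high pixels. Each runs 5′ to 3′ on the strand of the gene and ends at the base before the start.
Slc2a1 (chr4:119108495-119108744, plus): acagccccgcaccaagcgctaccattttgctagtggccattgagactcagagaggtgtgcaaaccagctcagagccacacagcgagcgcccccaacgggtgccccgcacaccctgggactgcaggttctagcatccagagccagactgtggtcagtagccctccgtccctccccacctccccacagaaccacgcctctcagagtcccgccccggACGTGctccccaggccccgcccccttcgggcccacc
Aldoa (chr7:126799255-126799504, minus): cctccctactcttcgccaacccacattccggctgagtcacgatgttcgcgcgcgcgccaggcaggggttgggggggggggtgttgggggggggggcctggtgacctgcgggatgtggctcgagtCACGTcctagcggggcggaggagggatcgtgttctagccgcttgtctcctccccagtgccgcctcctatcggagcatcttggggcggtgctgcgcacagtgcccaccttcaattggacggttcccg
Pgk1 (chrX:106186850-106187099, plus): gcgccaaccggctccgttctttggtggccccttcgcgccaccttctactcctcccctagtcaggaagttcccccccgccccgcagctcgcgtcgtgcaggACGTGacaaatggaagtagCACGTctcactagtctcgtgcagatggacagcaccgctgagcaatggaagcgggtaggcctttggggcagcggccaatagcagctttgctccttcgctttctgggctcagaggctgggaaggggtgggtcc
Ldha (chr7:46845554-46845803, plus): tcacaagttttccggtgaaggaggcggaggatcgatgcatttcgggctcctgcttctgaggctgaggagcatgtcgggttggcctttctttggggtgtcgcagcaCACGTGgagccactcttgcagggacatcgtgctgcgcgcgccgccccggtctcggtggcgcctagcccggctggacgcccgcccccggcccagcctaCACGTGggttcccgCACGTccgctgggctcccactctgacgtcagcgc
Pdk1 (chr2:71872974-71873223, plus): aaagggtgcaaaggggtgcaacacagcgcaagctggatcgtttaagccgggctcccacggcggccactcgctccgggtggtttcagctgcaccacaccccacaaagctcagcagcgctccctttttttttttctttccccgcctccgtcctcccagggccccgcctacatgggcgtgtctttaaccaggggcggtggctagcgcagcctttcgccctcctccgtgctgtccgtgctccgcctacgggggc
The Ldha window held 5 matches in 3 stretches, since CACGTG matches on both strands. The Pgk1 window held 2, the Slc2a1 and Aldoa windows 1 each and the Pdk1 window 0 of ACGTG and 1 of the relaxed core. The Slc2a1, Aldoa and Ldha windows precede RefSeq starts that lie inside the GENCODE gene. A further Ldha window (chr7:46846832-46847081) and a further Aldoa window (chr7:126800448-126800697) were not printed and held 0 of ACGTG.

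Levels over whole sections are given as CPM, the count divided by all counts in tissue pixels and multiplied by 1000000, for each gene on its own scale, since gene length was not divided out. Among the glucose carriers, Slc2a1 stood at 73.0 and 77.6 CPM in the E10 10 µm libraries, 127 in the E10 25 µm library and 97.2, 49.6 and 72.9 in the E10 50 µm libraries. It stood at 41.2 and 32.5 CPM in the E11 10 µm libraries, 47.0 and 72.2 in the E11 25 µm libraries and 51.4 in the E12 library. At each shared pixel width the E11 libraries were lower than the E10 libraries, and 3 of the 4 E11 libraries were lower than every E10 library and the E12 library. Slc2a3 ranged from 8.17 to 20.7 CPM with a median of 15.5, and both ends of that range were E11 libraries. Hk2, the hexokinase, ranged from 44.5 CPM in an E10 50 µm library to 100.1 in an E11 25 µm library.

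Aldoa was at 442 and 341 CPM at E10 10 µm, 319 at E10 25 µm and 445, 485 and 365 at E10 50 µm. It was at 569 and 1072 CPM at E11 10 µm, 611 and 469.9 at E11 25 µm and 398 at E12. All 4 E11 libraries were above the E10 libraries of their own width, and the highest was E11 10 µm replicate 2. Pgk1 ranged from 154 CPM in the E10 25 µm library to 516 in E11 10 µm replicate 2. Its level is uncertain, because the near-identical pseudogene Pgk1-rs7 (chr12:10898986-10900240, minus strand) took 57.8% as many counts as Pgk1 over all libraries. With a further copy, Gm5537, which matched Pgk1 at 100% over 1252 bases, the copies took 66.5% as many. Pgk1-rs7 took 33.8% to 38.4% of the sum of both in 10 libraries and 48.9% in the E10 25 µm library. The sum of Pgk1 and Pgk1-rs7 was still lowest there, at 302 CPM, against 317 to 807 CPM elsewhere. For the other members, copies found by sequence held at most 3.49% as many counts as the member itself.

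**Figure D1:**
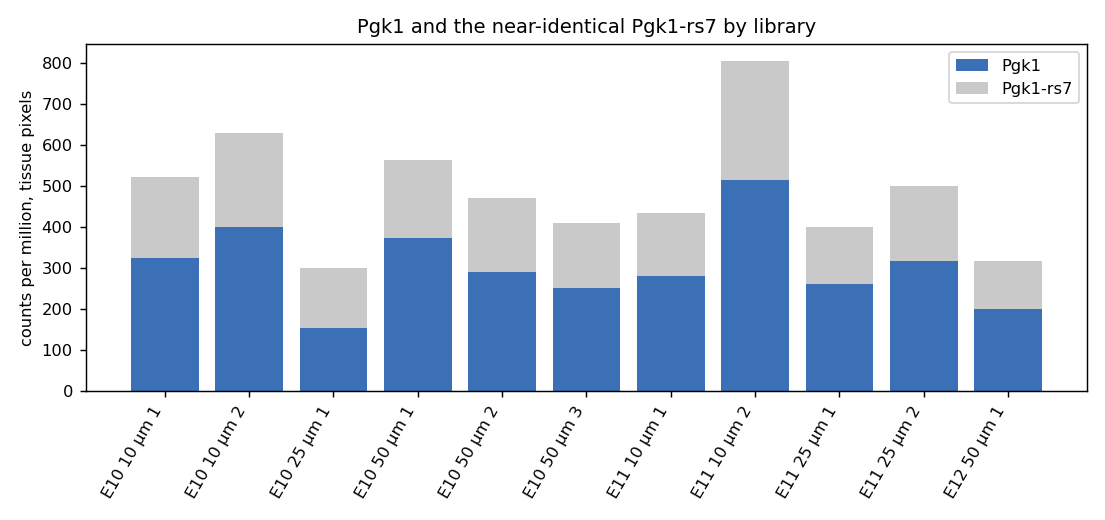
Stacked bars of CPM in tissue pixels for Pgk1 (lower part) and Pgk1-rs7 (upper part), with 1 bar for each of the 11 libraries. The pseudogene took 48.9% of the sum in the E10 25 µm library and 33.8% to 38.4% in the other 10.

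Pkm, the last step of glycolysis, ranged from 933 CPM in the E12 library to 1973 in an E11 25 µm library. The next lowest library after E12 was E10 10 µm replicate 1, at 1303 CPM, and the 3 E10 50 µm libraries of the same width as E12 were at 1801, 1949.8 and 1939 CPM. Ldha ranged from 606 to 1145 CPM, and the 2 E11 10 µm libraries were at both ends. Its spread of 1.89-fold over the 11 libraries was the smallest among the 10 genes. Pdk1 was at 42.9 CPM at E12, against 16.7 to 33.6 CPM in the other 10 libraries and 22.2, 19.3 and 18.8 CPM in the E10 50 µm libraries. Vegfa was at 30.7 CPM in the E10 25 µm library and between 12.4 and 18.8 CPM in the other 10. Bnip3 had the widest spread, 6.08-fold, from 3.84 CPM in the E10 25 µm library, where it rested on 6 counts, to 23.3 CPM in E11 10 µm replicate 2.

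**Figure D2:**
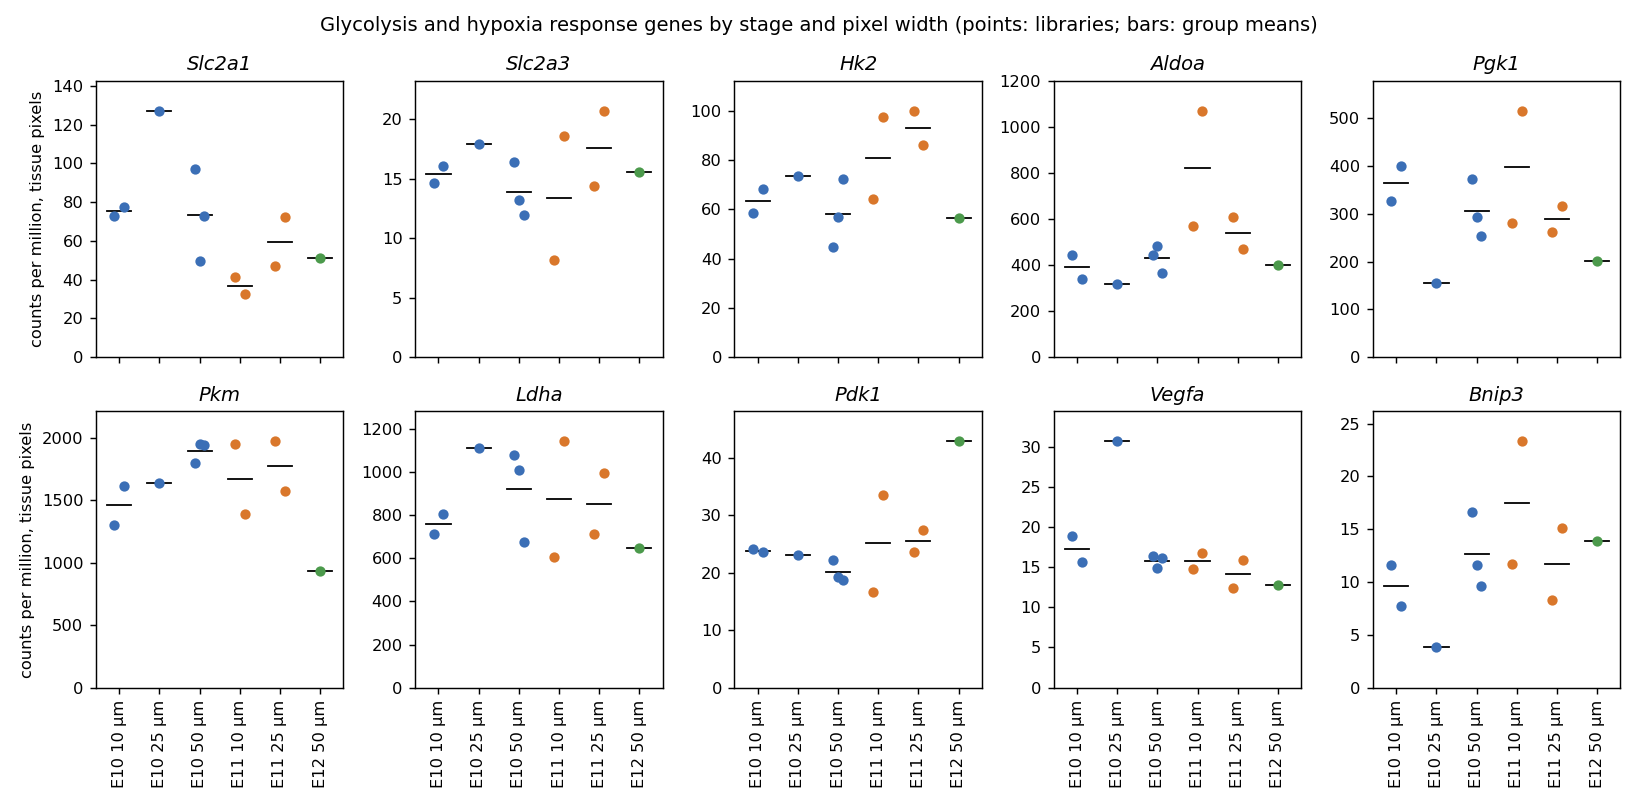
CPM in tissue pixels for the 10 genes, with 1 panel for each gene, the 6 groups of stage and pixel width along the horizontal axis, a point for each library and a bar at the group mean. Slc2a1 was lower and Aldoa higher in E11 than in E10 libraries of the same width, and the E12 library was lowest for Pkm and highest for Pdk1.

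No member passed an adjusted p of 0.05 in a comparison of stages or widths over whole sections (edgeR's quasi-likelihood test, Benjamini-Hochberg over 18233 genes). Between E11 and E10, averaged with equal weight over the 10 µm and the 25 µm change, 3.60% of all genes passed and 0 of the 10 members (4 at an unadjusted p under 0.05, where 4217 of all genes were). Slc2a1 was lower by a log2 fold change of -0.97 (SE 0.25, adjusted p 0.0546), Aldoa higher by 1.02 (SE 0.30, adjusted p 0.0762) and Bnip3 higher by 1.33 (SE 0.44, adjusted p 0.103). DESeq2 called Slc2a1 (adjusted p 0.0195) and Aldoa (0.00783). Without E11 10 µm replicate 1 edgeR called Slc2a1, Aldoa and Bnip3, and without E11 25 µm replicate 2 it called Slc2a1 alone. The E10 25 µm group is 1 library, whose spread was taken from the other groups; it had the highest Slc2a1, the lowest Aldoa and the lowest Bnip3 (6 counts) of all libraries. Slc2a1 changed by -1.05 (SE 0.33) at 10 µm and -0.89 (SE 0.39) at 25 µm, and Aldoa by 1.06 (SE 0.37) and 0.98 (SE 0.47). Of all genes, 3.33% passed at 10 µm and 0.455% at 25 µm, and no member did at either. Fewer cells of a type and less RNA per cell cannot be told apart in sums over a section. Liver marker pixels differed with stage. Each E10 section had 0 to 2, and 3 of the 4 E11 sections had 150 to 193, the set limit of 10% of tissue pixels. Neural marker pixels numbered 28 in E11 10 µm replicate 2 and 164 in E11 10 µm replicate 1. The former library had the highest Aldoa and Bnip3 of the 11. The part of liver, heart and neural tissue in these differences was not tested.

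Between E12 and E10 at 50 µm, 2.14% of all genes passed, 351 higher and 39 lower with edgeR and 338 higher and 183 lower with DESeq2. No member passed (2 at an unadjusted p under 0.05, and 0 and 1 in the comparisons of widths that follow). Pkm differed by -1.07 (SE 0.39, adjusted p 0.213) and Pdk1 by 1.05 (SE 0.37, adjusted p 0.19). E12 is 1 library, and its spread was taken from the other groups. Hemoglobin took 8.94% of counts in E12 and 1.65% to 3.18% in the E10 50 µm libraries. Liver marker-high pixels numbered 154 in E12, the set limit of 10% of tissue pixels, and 0 in each E10 50 µm library. The part of hemoglobin and liver in these values was not tested. Between pixel widths, 0.110% of genes passed for E10 10 µm against 50 µm (1 higher and 19 lower, but 223 and 174 with DESeq2) and 2.07% for E11 10 µm against 25 µm, with no member in either. Across the members, the median log2 fold change was 0.23 for E11 against E10 and -0.26 for E12 against E10, beside 0.05 and -0.04 for all genes.

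Of the 47 other genes of the pathway, 45 were tested over whole sections. They comprised 15 further genes of glycolysis and lactate transport, 8 HIF subunits and oxygen sensors, 15 further HIF targets and 9 genes of pyruvate entry. In E11 against E10, 1 of the 45 passed, Ldhb, the lactate dehydrogenase subunit of heart muscle, lower by -0.91 (SE 0.23, adjusted p 0.0462). At 10 µm alone, Slc16a3, a lactate exporter, was higher by 2.13 (SE 0.49, adjusted p 0.0392). None of the 45 passed in E12 against E10 or between widths.

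Within sections, neighbouring pixels were most alike in Ldha, Pkm, Aldoa and Pgk1. Moran's I, which compares each pixel with its 4 neighbours, was computed on log2(count per 10000 + 1) where a gene was present in 5% of tissue pixels or more. Ldha had a median I of 0.158 over 11 libraries, from 0.0809 to 0.317, and its median percentile among the genes of a library was 96.9. The median percentile of Pkm was 96.8 (median I 0.147), that of Aldoa 94.2 (0.117), that of Pgk1 90.9 (0.0970) and that of Hk2 86.3 (0.0586). Slc2a1, Pdk1, Slc2a3, Vegfa and Bnip3 had median values of 0.0224 to 0.0342, and Slc2a3, Vegfa and Bnip3 reached 5% of pixels in 6, 5 and 6 of the 11 libraries. These genes had fewer counts: Vegfa had 38 to 226 per library, against 1557 to 12283 for Ldha. In the section of E11 25 µm replicate 2, the highest Aldoa levels lay where the heart markers lay, and Ldha and Pkm were also high along the lower edge of the section, where both marker sets were low.

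**Figure D3:**
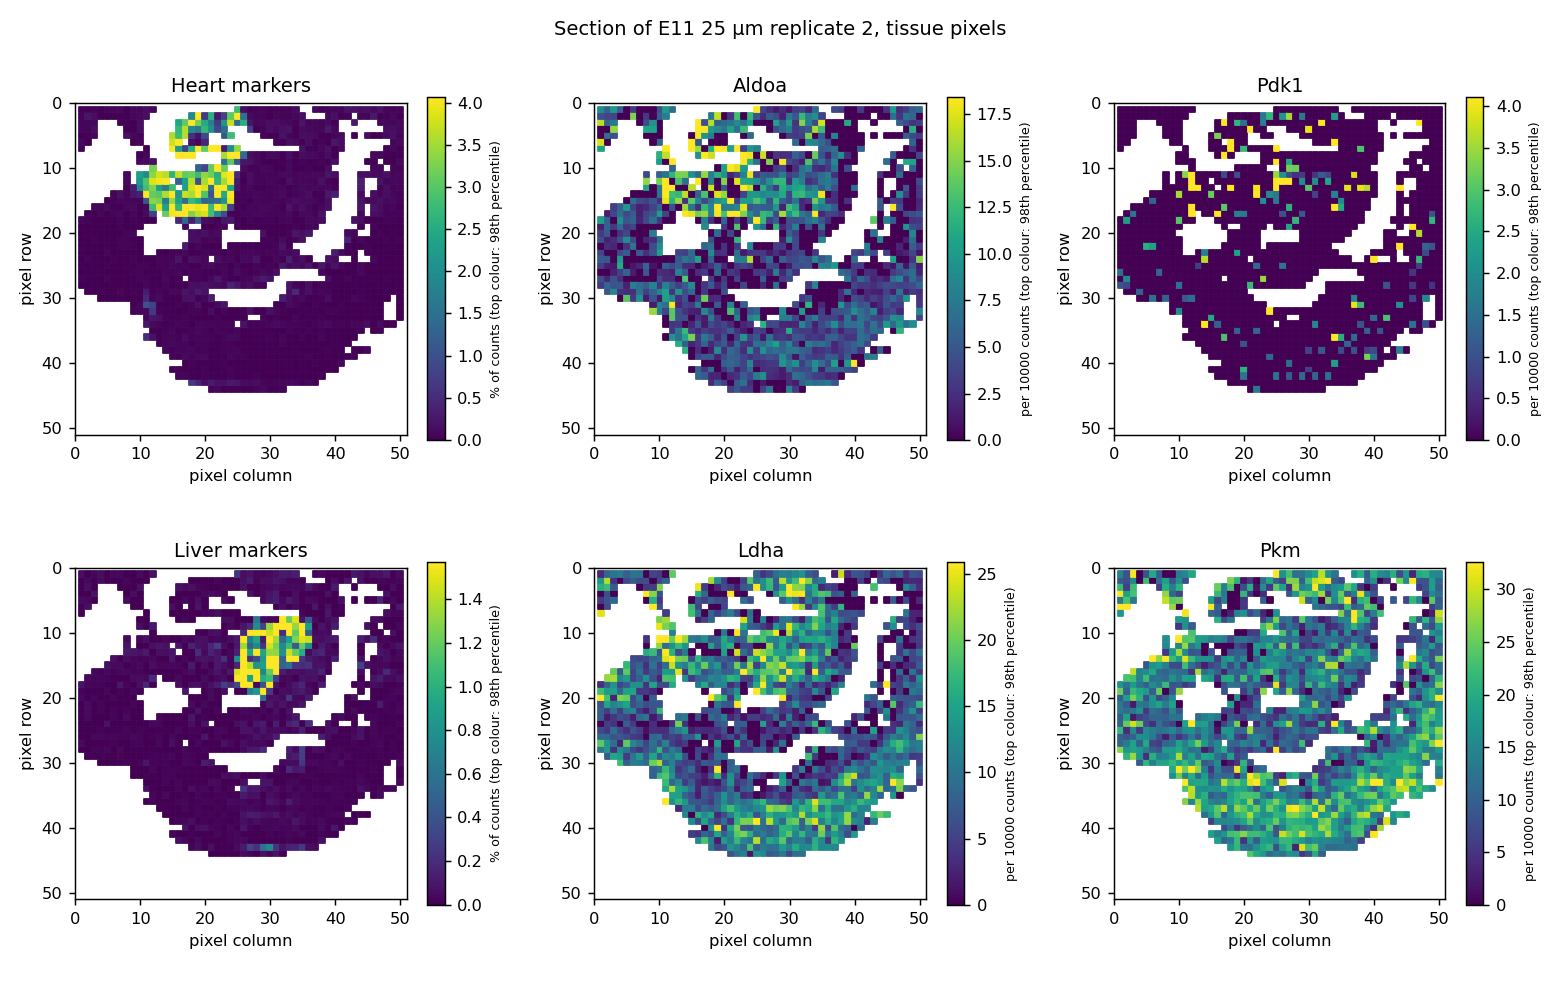
Tissue pixels of E11 25 µm replicate 2 on the grid of pixel columns and rows, coloured by the percent of counts in heart and liver markers and by counts per 10000 of Aldoa, Pdk1, Ldha and Pkm, with colours capped at the 98th percentile. The heart marker pixels at the upper left held the highest Aldoa values, and Ldha was high over the liver marker pixels to their right as well as along the lower edge.

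To compare organs, pixels were chosen by marker genes. For each list, up to 10% of tissue pixels, those with the largest share of counts in its selecting markers, were called marker-high. Selecting markers were 4 genes for heart and liver, 5 for red cells, and for neural the 4 progenitor and 4 neuron genes together. Only pixels with at least 3 counts of them could be chosen, so some libraries fell short of 10%. Heart markers chose 57 of 1766 tissue pixels in the E10 25 µm library. A library was used where at least 20 pixels were marker-high. Check markers, left out of the choice, also had to be at least 2 times higher in CPM there than in other tissue pixels. This left 10 libraries for neural markers, 9 for heart, 4 for liver and 11 for red cells. The check markers were 5.32 to 100.1 times higher in heart marker-high pixels, 7.88 to 52.0 times in liver, 2.12 to 7.65 times in neural and 4.02 to 20.8 times in red cell marker-high pixels. A marker-high pixel is a small region that can hold several cell types, not a cell. For the neural class 1512 pixels were chosen and 801 lay within 10% of the threshold on either side, so that class is a range, not a type. Counts were summed per library over marker-high and over other pixels and compared within libraries. Levels below are CPM of the library size after TMM scaling (scaled CPM).

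Heart marker-high pixels had higher Aldoa, Pdk1, Slc2a1 and Pgk1, which is 4 of the 10 members, where 6.80% of all genes were called higher and 4.37% lower. Aldoa was at 603, 462, 558, 831, 568.1, 1879, 1525, 1414 and 647 scaled CPM in the heart marker-high pixels of the 9 libraries, in the order of E10 10, 25 and 50 µm, E11 10 and 25 µm and E12. In the other pixels of the same libraries it was at 414, 299.7, 405, 476, 334, 1127, 648, 433 and 377. The heart pixels were higher in 9 of 9 libraries, by a log2 fold change of 0.86 (SE 0.11, adjusted p 1.46e-05), and Aldoa was called under all 19 alternatives run. Aldolase A is the aldolase of muscle as well as of most embryonic cells. Pdk1 was higher in 9 of 9 libraries as well, with 22.9 to 107 scaled CPM in heart pixels (median 55.4) and 17.1 to 41.2 in the others (median 23.1). Its log2 fold change was 0.95 (SE 0.20, adjusted p 0.0019), the smallest sum behind it was 3 counts, in the E10 25 µm library, and it did not pass in E10 libraries alone (0.54, adjusted p 0.155).

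Slc2a1 was higher in the heart pixels of 8 of 9 libraries, by 0.56 (SE 0.15, adjusted p 0.0183). The exception was E12, with 38.9 scaled CPM in heart pixels and 52.3 in the others. Pgk1 was higher by 0.30 (SE 0.09, adjusted p 0.037), with a log2 ratio of 0.00447 to 0.79 over the 9 libraries. Both calls were lost when the check markers chose the pixels, with the top 20% of pixels, and on leaving out the second E10 50 µm section or either E11 25 µm section. Pgk1 was also lost without E11 10 µm replicate 2, without the E12 library, in E10 libraries alone and with no filter on low counts. With its copies added, Pgk1 was higher by 0.28 (adjusted p 0.0484).

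The other 6 members did not pass in heart pixels. Pkm had a log2 fold change of -0.02 (SE 0.08), with ratios of -0.24 to 0.18 over the 9 libraries, and Ldha 0.12 (SE 0.09). Slc2a3 was at 5.54, 4.51 and 14.6 scaled CPM in the heart pixels of the 3 E11 libraries and at 21.7, 16.9 and 21.9 in their other pixels, on 1, 1 and 6 counts, and it was lower in E12 as well. It was higher in the heart pixels of 4 E10 libraries, with log2 ratios of 0.78, 0.16, 0.68 and 0.24, and had 0 counts in those of the E10 25 µm library. The fitted change of Slc2a3 was -0.05 (SE 0.27). The median over the members was 0.24, beside -0.06 for all genes. Of the 39 other pathway genes tested, 12 were higher and 0 lower, where 6.80% of all genes were higher and 4.37% lower. Pfkp, the platelet-type phosphofructokinase, was higher by 2.18 (SE 0.49), Hk1 by 1.38 (SE 0.23), Epas1, the HIF2 alpha subunit, by 0.76 (SE 0.24) and Gpi1, which isomerises glucose phosphate, by 0.62 (SE 0.11). Hif1a was higher by 0.59 (adjusted p 0.0044), Tpi1 by 0.48 and Gapdh by 0.39, while Eno1 (0.12, adjusted p 0.44) and Bnip3l (-0.01, adjusted p 0.99) did not pass. Other markers moved with the heart pixels. Endothelium markers were higher in 8 of 9 libraries (224 to 469.9 CPM in heart pixels), skeletal muscle markers, which include Des, in 9 of 9 (43.3 to 1050.5 CPM), and red cell markers in 4 of 9. Heart pixels were shallower than the others in all but 1 library. The part of these in the result was not tested.

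**Figure D4:**
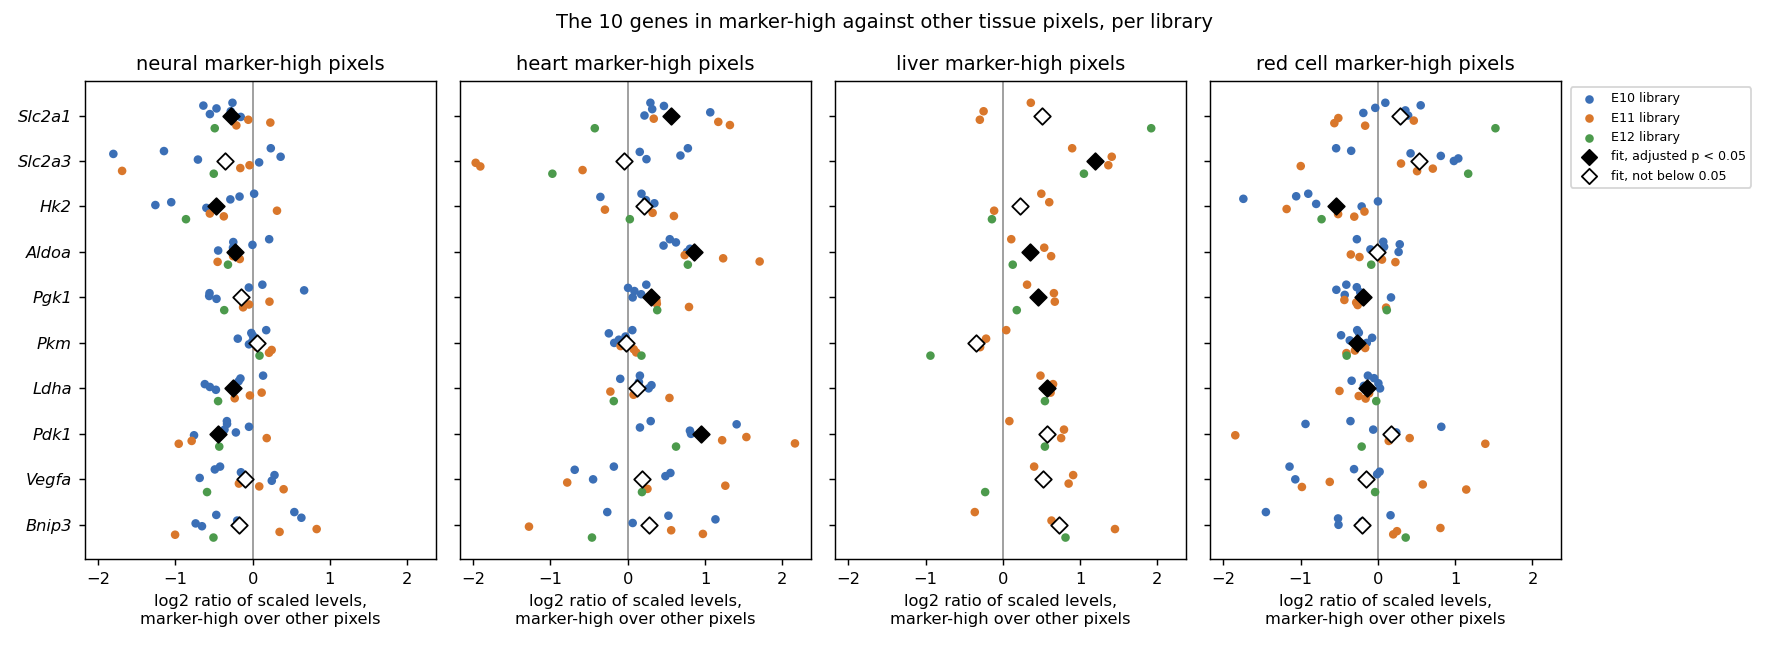
Log2 ratio of the scaled level in marker-high over other tissue pixels for the 10 genes, in panels for neural, heart, liver and red cell markers. Points are libraries coloured by stage, and diamonds are the fitted log2 fold change, filled where the adjusted p is under 0.05; Aldoa and Pdk1 were above 0 in 9 of 9 libraries in heart, Ldha in 4 of 4 in liver, and Pkm below 0 in 11 of 11 in red cell marker-high pixels.

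The heart difference itself was compared between stages in the 5 E10 and 3 E11 libraries. It was larger at E11 for Aldoa, by 0.59 on the log2 scale (SE 0.18, adjusted p 0.0388), and for Pdk1, by 1.19 (SE 0.35, adjusted p 0.0331). Of all genes, 4.86% passed, 335 larger and 200 smaller at E11 (313 and 106 with DESeq2). The log2 ratios of Aldoa were 0.54, 0.62, 0.46, 0.81 and 0.77 at E10 and 0.74, 1.23 and 1.71 at E11, so the stages overlapped at 1 E11 library. Those of Pdk1 were 0.30, 1.41, 0.16, 0.80 and 0.82 at E10 and 1.54, 1.22 and 2.16 at E11, overlapping at the E10 25 µm library with its 3 counts.

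These 2 calls were not stable. DESeq2 gave adjusted p of 0.0834 for Aldoa and 0.0558 for Pdk1, and the top 20% of pixels gave 0.579 and 0.511 with smaller differences of 0.23 and 0.56. Without E11 25 µm replicate 2 the differences were 0.37 and 0.87 (adjusted p 0.347 and 0.351). Both calls were also lost without E10 50 µm replicate 1, that of Aldoa also without E10 50 µm replicate 3 or E11 25 µm replicate 1. With the 10 and 25 µm libraries alone, the widths shared by both stages, the differences were 0.70 and 1.29 (adjusted p 0.169 and 0.284). The selecting heart markers themselves were at 3453 to 12326 CPM in the heart pixels at E10 and at 20119 to 39863 CPM at E11, and how far this sets the difference was not tested. Of the 39 other pathway genes tested, 9 differed in the same direction, where 4.86% of all genes passed in either direction. They included Pfkp (2.50, SE 0.39), Dlat (1.18, SE 0.29), a subunit of pyruvate dehydrogenase, Hk1 (1.10, SE 0.28) and Ldhb (0.96, SE 0.21). No member passed in the same test for neural markers (1.16% of genes passed), neuron markers (0.401%) or red cell markers (0.202%).

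**Figure D5:**
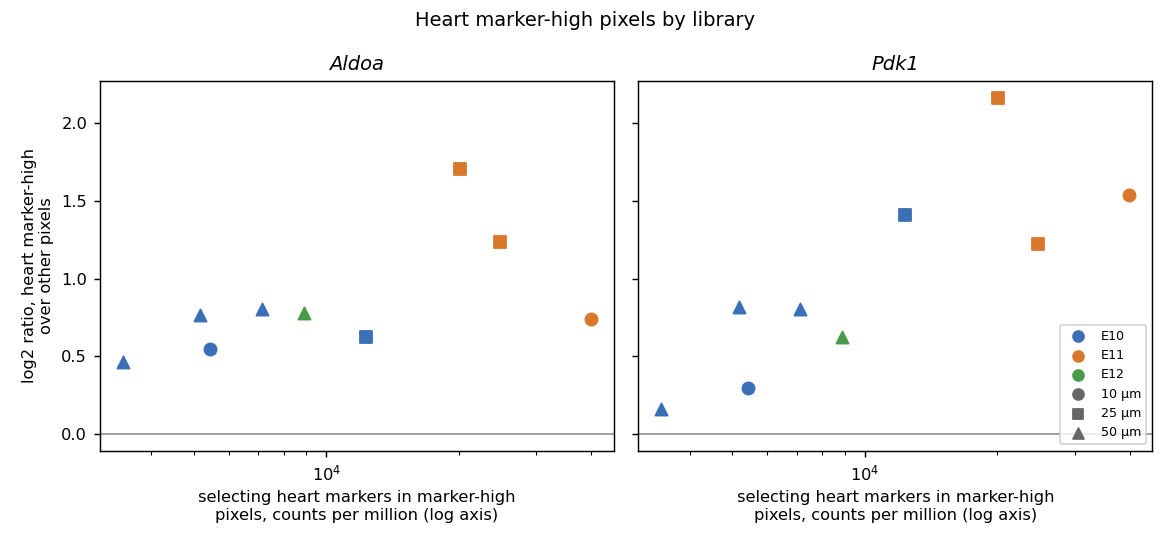
Log2 ratio of Aldoa and of Pdk1 in heart marker-high over other pixels, against the level of the selecting heart markers in the marker-high pixels (CPM, log axis), with colours for stage and shapes for pixel width. The 3 E11 libraries had both the highest marker levels, 20119 to 39863 CPM, and Aldoa ratios of 0.74 to 1.71.

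Liver marker-high pixels, present in 3 E11 libraries and the E12 library, had higher Ldha, Slc2a3, Pgk1 and Aldoa. Of all genes, 8.96% were called higher and 9.02% lower. Ldha was at 1506, 1065, 1389 and 854 scaled CPM in the liver pixels of E11 10 µm replicate 2, E11 25 µm replicates 1 and 2 and E12, against 1074, 678, 905 and 586 in the other pixels. Each library had about the same ratio, 0.49, 0.65, 0.62 and 0.54 on the log2 scale, and the fitted change was 0.58 (SE 0.07, adjusted p 0.000383). It was called under all 13 alternatives run. Slc2a3 was at 30.4, 32.1, 43.8 and 27.0 scaled CPM in liver pixels, against 16.3, 12.1, 17.0 and 13.1 in the others, on 13 to 38 counts. It was higher by 1.20 (SE 0.24, adjusted p 0.00514), and this call was lost without E11 25 µm replicate 2 (adjusted p 0.0895) and with the top 5% of pixels. Red cell markers were higher in the liver pixels of 3 of the 4 libraries. Hemoglobin took 2.55% and 1.90% of counts in the liver pixels of the E11 25 µm libraries and 18.7% in E12, against 1.96%, 1.44% and 7.20% in the others, but 1.18% against 2.40% in E11 10 µm replicate 2. Their part was not tested.

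Pgk1 was higher in liver pixels by 0.46 (SE 0.11, adjusted p 0.0136) and Aldoa by 0.35 (SE 0.10, adjusted p 0.0327), each in 4 of 4 libraries. Both were lost when either E11 25 µm library was left out, and Aldoa also with DESeq2 and with no filter on low counts. Pkm, in contrast, was lower in 3 of 4 libraries and did not pass, at 493.5 against 944 scaled CPM in E12 and 1419 against 1376 in E11 10 µm replicate 2 (fitted -0.35, SE 0.14, adjusted p 0.143). Slc2a1 was higher in 2 of 4 libraries and did not pass (adjusted p 0.461). In E12 it was at 137 scaled CPM in liver pixels and 36.3 in the others, while the 3 E11 libraries had 39.8, 41.3 and 57.7 against 31.0, 49.1 and 70.8. Pdk1 was higher in 4 of 4 libraries (0.57, SE 0.21, adjusted p 0.0805). Without E11 10 µm replicate 2, Pkm, Pdk1 and Bnip3 passed as well, for 7 members in all. Over all genes, the number called in liver pixels ran from 1026 to 3105 across the alternatives, beside 2047 in the reported fit. The median over the members was 0.51, beside 0.01 for all genes.

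In the same liver pixels, 8 of the 40 other pathway genes tested were higher and 2 lower, where 8.96% of all genes were higher and 9.02% lower. Ndrg1, a HIF target, was higher by 2.52 (SE 0.39), and the lactate carriers Slc16a1 and Slc16a3 by 1.22 (SE 0.22) and 1.05 (SE 0.17). Mpc2, a subunit of the mitochondrial pyruvate carrier, was higher by 1.02 (SE 0.12). Hif1a was lower by -0.59 (adjusted p 0.025), while Tpi1 (0.46) and Eno1 (0.30) were higher and Gapdh (0.10, adjusted p 0.35) did not pass. Epithelium markers were higher in 4 of 4 libraries (169 to 336 CPM), and liver pixels were deeper than the others in 4 of 4.

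Neural marker-high pixels had lower Hk2, Pdk1, Slc2a1, Ldha and Aldoa, 5 of the 10 members, where 13.0% of all genes were called lower and 13.4% higher. Hk2 ranged from 21.1 to 82.0 scaled CPM in neural pixels (median 60.5) and from 43.7 to 120.4 in the others (median 67.5), lower in 8 of 10 libraries, by -0.47 (SE 0.12, adjusted p 0.00521). Pdk1 was lower in 9 of 10 libraries by -0.45 (SE 0.14, adjusted p 0.0177), and Slc2a1 in 9 of 10 by -0.28 (SE 0.09, adjusted p 0.0242). Ldha was at 467 to 973 scaled CPM in neural pixels (median 749) and 629.9 to 1103 in the others (median 831), lower by -0.25 (SE 0.07, adjusted p 0.0147). Aldoa was lower in 9 of 10 libraries by -0.22 (SE 0.06, adjusted p 0.0057). These differences are small: in every case the ranges of neural and other pixels overlapped across libraries, and the difference shows only within sections.

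Pkm did not follow them. It was at 1022 to 2629 scaled CPM in neural pixels and 961 to 2216 in the others, higher in 6 of 10 libraries, with a fitted change of 0.05 (SE 0.04, adjusted p 0.389). Pgk1 (-0.16), Slc2a3 (-0.35), Vegfa (-0.09) and Bnip3 (-0.18) did not pass. The median over the members was -0.24, beside -0.03 for all genes. Markers of other tissues were lower in neural pixels. Red cell markers were at 0.312 to 0.822 times, epithelium markers at 0.108 to 0.474 times and mesenchyme markers at 0.176 to 0.967 times the CPM of the other pixels, each lower in 10 of 10 libraries, and their part was not tested. When the other pixels were limited to those high in no list, 2 members remained called lower, Hk2 and Ldha. Slc2a1 and Ldha were lost without E10 50 µm replicate 2 or without E12, Slc2a1 also without E10 10 µm replicate 2, and Pdk1 without E11 25 µm replicate 2. The top 20% of pixels ended the calls of Hk2, Slc2a1 and Ldha, the top 5% those of Hk2 and Aldoa, and E10 libraries alone those of Aldoa and Pdk1.

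Neurons and progenitors were also taken apart. In pixels chosen by neuron markers alone, the same 5 members were lower, Hk2 by -0.48 (SE 0.12), Pdk1 by -0.54 (SE 0.14), Slc2a1 by -0.30 (SE 0.09), Ldha by -0.24 (SE 0.08) and Aldoa by -0.24 (SE 0.06), where 14.1% of all genes were lower and 14.3% higher. Hk2 passed under all 20 alternatives there. Slc2a1 was lost with the top 20% of pixels and against other pixels high in no list, Aldoa against the latter and in E10 libraries alone, and Pdk1 in E10 libraries alone. Ldha was lost with the top 20%, in E10 libraries alone, without E10 50 µm replicate 2 and without E12. In the libraries used, 57.1% to 79.8% of these pixels were also neural marker-high, so both results share counts. Pixels chosen by progenitor markers passed the check in 3 libraries, and there no member was called, where 1.91% of all genes were lower and 2.13% higher. Slc2a3 was at 8.64, 10.4 and 10.5 scaled CPM in them and at 16.1 to 22.7 in the others (fitted -0.91, SE 0.30, adjusted p 0.137). When check markers chose the progenitor pixels, 6 members passed, and Slc2a1, Pgk1 and Ldha then lay above 0, so no direction is given for progenitors. Over all genes, the number called in progenitor pixels also ran from 42 to 2673 across the alternatives, beside 517 in the reported fit.

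Among the other pathway genes in neural pixels, 2 of 37 were higher and 7 lower, where 13.4% of all genes were higher and 13.0% lower. Pdp1, the phosphatase that activates pyruvate dehydrogenase, was higher by 0.76 (SE 0.24), and Mxi1, a HIF target that antagonises Myc, by 0.45 (SE 0.12). Fam162a, a HIF target of the mitochondrion, was lower by -0.49 (SE 0.09) and the lactate carrier Slc16a1 by -0.48 (SE 0.15). The enzymes Eno1 (-0.39), Tpi1 (-0.25) and Gapdh (-0.23) were lower too. Pdk3, a further kinase of pyruvate dehydrogenase, was lower in neuron marker-high pixels by -0.50 (SE 0.14).

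Red cell marker-high pixels, the blood-rich regions, had lower Hk2, Pkm, Pgk1 and Ldha, 4 of the 10 members, where 5.71% of all genes were called lower and 6.32% higher. Red cell markers took 61283 to 256695 CPM of these pixels, which lowers every other CPM, so the values here rest on the TMM scaling of the fit. An alternative without the hemoglobin genes, run for the other marker lists, was not run for this one. Pkm was at 696 to 1729 scaled CPM in red cell pixels (median 1359) and 920.0 to 2124 in the others (median 1612), lower in 11 of 11 libraries, by -0.28 (SE 0.04, adjusted p 1.46e-06), and called under all 20 alternatives. Hk2 was at 21.3 to 90.9 scaled CPM against 39.8 to 108, lower in 10 of 11 libraries, by -0.54 (SE 0.12, adjusted p 0.00123), a call lost when the check markers chose the pixels (-0.33, adjusted p 0.234). Pgk1 was lower by -0.19 (SE 0.06, adjusted p 0.0438) and Ldha by -0.14 (SE 0.05, adjusted p 0.0339). Both were lost with DESeq2, and both depended on the setting: Pgk1 passed in 10 and Ldha in 9 of the 20 alternatives. Leaving out E10 10 µm replicate 1, E10 50 µm replicate 2 or the first section of either E11 width ended both. Pgk1 was also lost without E10 10 µm replicate 2, E10 50 µm replicate 1 or E11 10 µm replicate 2, and Ldha without E11 25 µm replicate 2. Aldoa was level at -0.01 (SE 0.06). Slc2a3 was higher in 8 of 11 libraries (0.53, SE 0.19, adjusted p 0.0681) and passed without either E10 10 µm library or without E11 10 µm replicate 2 (adjusted p 0.0284, 0.0434 and 0.0325). Slc2a1 was higher in 6 of 11 (0.28, SE 0.13, adjusted p 0.185).

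Of the 37 other pathway genes tested in red cell pixels, 3 were higher and 3 lower, where 6.32% of all genes were higher and 5.71% lower. Epas1, known from endothelium, was higher by 0.86 (SE 0.19), Hk1, the hexokinase of red cells, by 0.61 (SE 0.13) and Arnt, the partner of Hif1a, by 0.47 (SE 0.15), while Higd1a, a mitochondrial HIF target, was lower by -0.47 (SE 0.10). Gapdh was lower by -0.23 and Eno1 by -0.19. Endothelium markers were higher in these pixels in 11 of 11 libraries, 1.03 to 2.77 times, and the median depth of red cell pixels was below that of the others in 11 of 11. Their part in the result was not tested.

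Read by role, the members called differed by organ. Among carriers and hexokinase, Slc2a1 was higher in heart (0.56) and lower in neural pixels (-0.28), Slc2a3 was higher in liver (1.20), and Hk2 was lower in neural and red cell pixels (-0.47 and -0.54) and did not pass in heart (0.22) or liver (0.22). Aldoa was higher in heart (0.86) and liver (0.35) and lower in neural pixels (-0.22). Pgk1 was higher in heart and liver and lower in red cell pixels. Pkm passed in red cell pixels alone, and Ldha was higher in liver and lower in neural and red cell pixels. Pdk1 was higher in heart and lower in neural pixels. Vegfa and Bnip3, the members outside glycolysis, were called in no organ. Their sums in marker-high pixels were as low as 1 and 0 counts in a library, and the standard errors of their fitted differences were 0.16 to 0.32. Several of these calls were not stable. That of Pgk1 was lost in 9 of 19 alternatives in heart and in 10 of 20 in red cell pixels. Those of Ldha in red cell pixels and Slc2a1 in heart were lost in 11 of 20 and 5 of 19. Aldoa in heart, Ldha in liver and Pkm in red cell pixels were called under all alternatives run. Differences between organs were not tested against each other.

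Pixel by pixel, 4 members reached 20% of tissue pixels in each of the 3 E10 50 µm libraries and the E12 library, and their likeness to 3363 genes was taken as the mean Pearson r over those 4 libraries. Aldoa was most like Ttn (0.181), Myl4 (0.173) and Ldha (0.164), the leading 2 being genes of the muscle sarcomere. Pgk1 was most like its own copy Pgk1-rs7 (0.312), then Ldha (0.136) and Eno1 (0.124). Pkm was most like Rpl5 (0.179), Rpl32 (0.169) and Ccnd1 (0.163), and Ldha was most like Rpsa (0.195), Rpl41 (0.184) and Eno1 (0.183). Among the members, Aldoa and Ldha (0.164), Pkm and Ldha (0.155) and Pgk1 and Ldha (0.136) were the closest pairs, beside a median of 0.0198 over all pairs of those genes and a 95th percentile of 0.0624. The correlations are over pixels that share a library and differ in depth, so they describe these sections only.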

How the data were processed

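Transcripts were counted in 11 libraries. Per the labels' protocols, embryos were frozen in OCT for sectioning, and Nextera XT libraries were read in pairs on a HiSeq instrument. The authors deposited unnormalized counts per gene symbol and pixel. The submitters' processing notes name CASAVA 1.8.2 and the human build GRCh38, although the symbols are of mouse. The aligner, annotation, use of strand and collapsing of duplicate molecules are not given in the sources used here. Of 16 columns under Ensembl identifiers, 15 were joined to their symbol. Antibody tables were not analysed here.

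A tissue pixel had a total of at least 0.1 of the 95th percentile of its library. Summed counts were tested with edgeR 4.0.16 (limma 3.58.1, R 4.3.3): TMM, default filter on low counts, robust quasi-likelihood fit, two-sided, Benjamini-Hochberg over all genes tested, threshold 0.05. Whole sections were fitted as 6 group means over 11 libraries, marker-high against other pixels with the library as a block, and stages by an interaction term. Standard errors are the log2 fold change over the root of F. DESeq2 1.42.0 was an alternative. The fits and Moran's I were tested on simulated data. Copies of members were found with blastn 2.17.0 at 90% identity over 300 bases. Libraries of a group were checked against each other and differed by 24.6 to 70.0 times the degrees of freedom in chi-square, so none was a copy of another. Each library counted as 1 sample. The check cannot tell whether sections came from separate embryos, since sections of the same embryo can differ too. Depth was 1563489 to 11998765 counts per library.

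The members, pathway lists, markers and organs were chosen with earlier results of these data known. All members are named, with up to 4 pathway genes of largest change per comparison among those called, the enzymes Gapdh, Tpi1 and Eno1, Hif1a and Bnip3l, and the 3 genes most like each member. Further alternatives, chosen after seeing the data, added copies found by sequence to the members, left out each library from the stage difference of organs and limited it to the 10 and 25 µm libraries.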

Additional observations from a re-analysis of the deposited data

Results flagged for a closer look

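The difference between heart marker-high and other pixels was itself larger at E11 than at E10 for 2 members, by a test of that difference (edgeR interaction term). It was larger by 0.59 on the log2 scale for Aldoa (SE 0.18, adjusted p 0.0388) and by 1.19 for Pdk1 (SE 0.35, adjusted p 0.0331). Of all genes, 4.86% passed this test. Neither call was stable: of 11 alternatives, 7 lost that of Aldoa and 5 that of Pdk1.

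In heart marker-high pixels, the log2 ratio of Pgk1 in E11 25 µm replicate 2 was 0.79, on 225 counts, and the nearest of the other 8 libraries was at 0.38. Dixon's test marks that library as far from the rest. Chance alone marks about 1 in 20 such groups, and 42 groups of libraries were looked at, of which 1 was marked.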

How the results depend on the processing

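Of 2657 values of single genes under alternatives, 2487 kept their side of the threshold; in 140 of these the sign differed where neither value passed. A further 138 lost and 29 gained a call, and 3 changed sign, where check markers chose the progenitor pixels: Slc2a1 (0.45), Pgk1 (0.27) and Ldha (0.32) were then higher. Of 223 counts of called members, 185 stayed within 1.5 times the reported count. For E11 against E10 (0 members) DESeq2 called 2 and no filter on low counts 3. For neural pixels (5) the top 5% of pixels, the top 20% and the E10 libraries alone gave 3 each, and other pixels high in no list 2. For neuron pixels (5) the top 20% gave 3, E10 libraries alone 2 and other pixels high in no list 3. For heart pixels (4) the top 20%, check markers and E10 libraries alone gave 2 each. For red cell pixels (4) DESeq2 and other pixels high in no list gave 2 each and check markers 1. For progenitor pixels (0) the top 20% gave 1, check markers 6 and all libraries 2. The stage difference in heart (2) fell to 0 with DESeq2, the top 20% and the 10 and 25 µm libraries alone. The cause was not tested. Leaving out each library in turn, the members called ranged from 0 to 3 for E11 against E10, 3 to 6 in neural, 4 to 6 in neuron, 2 to 4 in heart, 2 to 4 in red cell and 1 to 7 in liver pixels, and 0 to 2 for the stage difference in heart; they stayed at 0 in E12 against E10, both comparisons of widths, progenitor pixels and the other stage differences. E11 against E10 could not be fitted without the E10 25 µm library, nor E12 against E10 without the E12 library, and E10 libraries alone hold no liver or progenitor pixels that passed the check.

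Over all genes, the number called under alternatives ranged from 144 to 1988 for E11 against E10 (656 reported), 98 to 1328 for E12 against E10 (390), 0 to 731 for E10 10 against 50 µm (20) and 33 to 870 for E11 10 against 25 µm (378). It ranged from 866 to 2006 in heart (1233), 1026 to 3105 in liver (2047), 516 to 2022 in red cell (1251), 2297 to 4080 in neural (2810), 2528 to 4418 in neuron (3054) and 42 to 2673 in progenitor pixels (517). For the stage difference it ranged from 142 to 657 in heart (535), 12 to 447 in neural (123), 1 to 313 in neuron (43) and 7 to 37 in red cell pixels (21). With the E11 replicate number as a block, 0 members and 297 genes were called between widths. The deviations of same-numbered libraries had r of 0.0544 over 18233 genes. This cannot settle whether the numbers pair sections, since the sections also held different organs. Depth limits Bnip3, Vegfa, Slc2a3 and Pdk1 most, with 6 to 289 counts per library.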
